A study of Mus musculus with 6 samples.

Results

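MAGE genes encode adaptor proteins that share a MAGE homology domain, through which they bind RING-type ubiquitin ligases and steer them to their substrates. Type I genes, the MAGE-A, -B and -C groups, are mostly restricted to the germline and are a classic case of genes kept silent in somatic cells by DNA methylation, whereas type II genes are transcribed in many somatic tissues, neural and endocrine tissue among them. Described here are 5 mouse type II genes, Maged1, Maged2, Magee1, Magee2 and Mageh1, out of 18193 genes that the array's annotation names by a symbol of their own. All probe sets annotated to a member symbol alone were taken, which gave 5 probe sets for 4 genes out of 45101 probe sets on the array. Magee2 has no such probe set and is named only. The genes were chosen with their signals on these arrays and their siDNMT1 to siNT differences already known, so both are given below as descriptions, with no test.

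The cells were AtT-20, an established mouse pituitary tumour line of the corticotroph type, the pituitary cell that makes the stress hormone precursor pro-opiomelanocortin. One group received siDNMT1, an siRNA against the maintenance DNA methyltransferase Dnmt1, and the other siNT, a non-targeting siRNA, each at 20 nM and given repeatedly for 8 days before total RNA was taken. The labels report 3 independent runs of the procedure, each with 1 array per group, and arrays are named here by group and repeat number. All arrays thus come from transfected cells of a single tumour line, with no untransfected sample among them. Precision is limited throughout by the small number of arrays.

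Markers of the labelled cell type were present on all arrays. All 6 markers of that cell type (Pomc, Tbx19, Pitx1, Neurod1, Crhr1 and Pcsk1) passed the filter on dim probe sets, and their summed scaled signal was 8638 to 13606 with siDNMT1 and 10042 to 13659 with siNT. The filter was passed by 4 of 7 markers of other pituitary cells, 5 of 7 of fibroblasts and 3 of 5 of leukocytes, with sums of 142 to 213 against 123 to 234, 168 to 230.1 against 149 to 189, and 342 to 377 against 365 to 439.9. Dnmt1 itself had a log2 difference of -1.54 (limma SE 0.24, or 0.37 over its 3 repeat differences). The limma adjusted p was 0.151, and 0.0211 with the repeat number as a block. All 3 siDNMT1 arrays lay below all 3 siNT arrays, and an exact two-sided permutation test gave 0.1, the smallest p that 3 against 3 allows.

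DNA methylation in mammals falls on CG dinucleotides, so the sequence just before each gene's start is shown for the 4 measured members, with every CG in capitals. The 250 bases before a start were taken from RefSeq, mouse build GRCm38.p6, and are printed 5′ to 3′ on the gene's own strand. All 5 members lie on chromosome X. For Maged2 the table lists 4 starts, and the window shown is 1 of the 2 overlapping ones that have most CG.
Maged1, chrX:94542026-94542275, minus strand: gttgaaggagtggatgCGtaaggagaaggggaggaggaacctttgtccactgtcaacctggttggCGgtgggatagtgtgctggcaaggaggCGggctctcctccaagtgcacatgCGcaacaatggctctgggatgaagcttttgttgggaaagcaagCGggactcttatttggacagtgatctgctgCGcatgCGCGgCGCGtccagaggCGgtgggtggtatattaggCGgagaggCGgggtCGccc
Maged2, chrX:150813003-150813252, minus strand: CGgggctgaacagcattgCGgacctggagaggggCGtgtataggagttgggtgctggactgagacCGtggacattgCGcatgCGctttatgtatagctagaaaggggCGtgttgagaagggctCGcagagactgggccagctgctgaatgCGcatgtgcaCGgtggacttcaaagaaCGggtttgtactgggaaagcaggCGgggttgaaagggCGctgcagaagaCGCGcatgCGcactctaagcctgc
Magee1, chrX:105120128-105120377, plus strand: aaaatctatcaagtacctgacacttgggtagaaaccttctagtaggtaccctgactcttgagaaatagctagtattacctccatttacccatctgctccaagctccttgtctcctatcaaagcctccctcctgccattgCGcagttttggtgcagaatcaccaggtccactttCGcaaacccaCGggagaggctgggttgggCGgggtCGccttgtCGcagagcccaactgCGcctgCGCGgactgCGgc
Mageh1, chrX:153037564-153037813, minus strand: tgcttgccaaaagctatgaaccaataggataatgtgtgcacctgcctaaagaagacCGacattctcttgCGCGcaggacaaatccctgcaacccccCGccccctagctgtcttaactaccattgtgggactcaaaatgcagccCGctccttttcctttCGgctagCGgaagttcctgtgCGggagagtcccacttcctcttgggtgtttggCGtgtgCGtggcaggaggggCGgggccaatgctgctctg

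In these windows Maged1 has 14 CG dinucleotides, Maged2 16, Magee1 10 and Mageh1 11. The other 2 Maged2 starts, farther upstream, have 7 each, and which start these cells use is not known from the arrays. The median over all 32851 RefSeq start windows of the same length was 6. The shares of all windows that hold fewer CG than these were 70.6%, 74.6%, 62.2% and 64.4%, so the members lay in the upper part of the distribution but far from its top. Over all 8 windows of the 5 members, Magee2 included, the count ran from 7 to 16 and the ratio of observed to expected CG from 0.56 to 0.83. The 13 type I genes with a window in the same table had a median of 1, with Magea1, Magea3, Magea4, Magea5 and Mageb5 at 0 and Mageb3 highest at 13. Of the other type II genes, Ndn had 5, Magel2 7 and Nsmce3 16. The ranges of the members and the type I genes therefore overlapped, through Mageb3, Mageb4, Magea2 and Magea8.

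**Figure D1:**
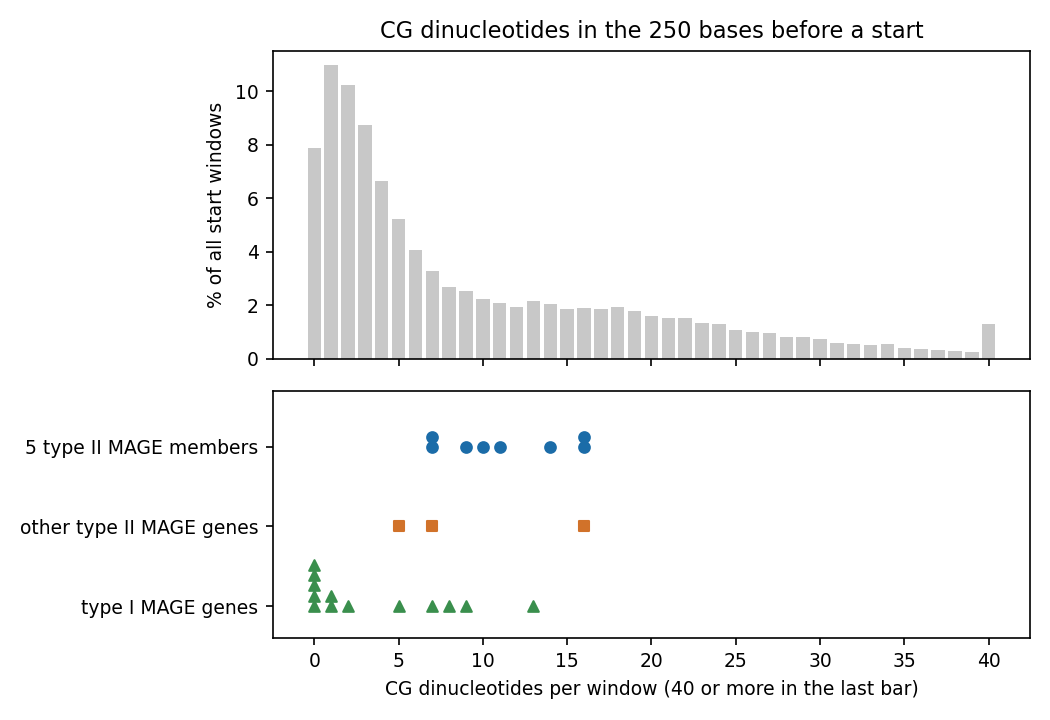
CG dinucleotides in the 250 bases before a start. The upper panel gives the percentage of all 32851 RefSeq windows at each count, and each point in the lower panel is 1 window of the 5 members (7 to 16 CG), of other type II genes (5 to 16) or of type I genes (0 to 13, with 5 windows at 0).

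A pair of members shared a CG-containing motif. GCGCATGCG, the core of the element bound by the transcription factor NRF1, was searched on both strands and was found in Maged1 and Maged2, at 1 and 2 places, the latter in the window shown and not in the 2 windows farther upstream, and in no window of Magee1, Magee2 or Mageh1. At each of these places the motif is followed by a C, so the other strand matches there as well. Each place was counted once. It was present in 1.45% of all windows, in Ndn and Nsmce3 among 3 other type II genes, and in 0 of 13 type I genes. The 3 places are shown with the motif in capitals, and they begin 62 bases before the Maged1 start and 175 and 23 bases before the Maged2 start.
Maged1, chrX:94542073-94542093, minus strand: tctgctGCGCATGCGcggcgc
Maged2, chrX:150813163-150813183, minus strand: gacattGCGCATGCGctttat
Maged2, chrX:150813011-150813031, minus strand: gaagacGCGCATGCGcactct

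The cyclic AMP response element TGACGTCA, held by 1.55% of all windows, and the ETS factor motif CCGGAAG, held by 6.91%, were searched on both strands as well and matched in no window of the members. A match describes letters only, and no binding or methylation was measured in these samples.

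Maged2 had the largest difference among the members. It encodes an adaptor best known from the kidney, where its loss causes a transient salt-losing disorder before birth and where it supports salt transporters through the stimulatory G protein alpha subunit. On its bright probe set, 1426306_a_at, the scaled signals of siDNMT1 arrays 1, 2 and 3 were 216, 253 and 219.8, and those of siNT arrays 1, 2 and 3 were 379, 429.5 and 343. Every siDNMT1 array was below every siNT array, and the gap was similar in all repeats. The siDNMT1 arrays held 57.2%, 58.9% and 64.1% of their same-numbered control, a mean of 60.1% ± 3.64 (SD, n = 3). On the log2(scaled signal + 5.29) scale, which is used for all differences, the mean difference was -0.72 (SE 0.05 over the 3 repeats). Every SE given for a member is of this kind. For all other genes the SE is that of limma without the block, so member SEs cannot be compared with theirs. In bulk RNA, fewer cells with the transcript and less transcript per cell cannot be told apart.

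The Maged2 values were more even than those of the targeted gene. Dnmt1 was at 39.6%, 20.2% and 48.6% of control in repeats 1, 2 and 3. Whether Maged2 varies with Dnmt1 over the repeats was not tested. The other Maged2 probe set, 1459873_x_at, did not show the same pattern. Its scaled signals were 46.9, 22.2 and 28.7 with siDNMT1 and 31.2, 28.2 and 26.05 with siNT, so the groups overlapped, and the differences of repeats 1, 2 and 3 were 0.52, -0.28 and 0.12, with a mean of 0.12 (SE 0.23). This probe set is dim, has no accession in the annotation, and carries the suffix that Affymetrix gives to probe sets with probes shared by unrelated transcripts. The average of both Maged2 probe sets was -0.30.

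Mageh1, a short type II protein that binds the p75 neurotrophin receptor, was lower by a smaller amount and as evenly. Its scaled signals were 218, 276 and 219 with siDNMT1 and 281, 332 and 281 with siNT in repeats 1 to 3. The highest siDNMT1 array, of repeat 2, lay just under the lowest siNT array. The siDNMT1 arrays held 77.7%, 83.2% and 77.9% of their controls, with a mean of 79.6% ± 3.12 (SD, n = 3) and a log2 difference of -0.32 (SE 0.03).

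Magee1 encodes an adaptor that binds alpha-dystrobrevin of the dystrophin complex. Its scaled signals were 191, 278 and 238 with siDNMT1 and 201, 383 and 302 with siNT. Each siDNMT1 array was below its own control, but the groups overlapped, because both arrays of repeat 1 were low. The differences of repeats 1, 2 and 3 were -0.07, -0.46 and -0.34, with a mean of -0.29 (SE 0.11). The mean was -0.54 without the control array of repeat 1 and -0.08 without that of repeat 2, so its size depended on single control arrays.

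Maged1, also known as NRAGE or Dlxin-1, is an adaptor of the p75 neurotrophin receptor that also binds the Dlx and Msx homeodomain factors and the ligase Praja1. Its scaled signals were 2089, 1837 and 2658 with siDNMT1 and 2218, 2258 and 2641 with siNT. The groups overlapped, with repeat 3 highest in both, and the mean difference was -0.12 (SE 0.09), with -0.09, -0.30 and 0.01 in repeats 1 to 3. Its mean deposited signal was 2314. Repeat 2 was deposited on a higher scale than the other repeats, by 0.866 (median log2) among all probe sets at 200 to 500. The excess was 0.707 among those at 1500 to 3000 and 0.38 among those at 4000 to 6000. On the Maged1 probe set itself it was 0.452. The excess thus fell most above the range that holds Maged1. Whether compression of bright signals has a part in the small Maged1 difference was not tested.

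**Figure D2:**
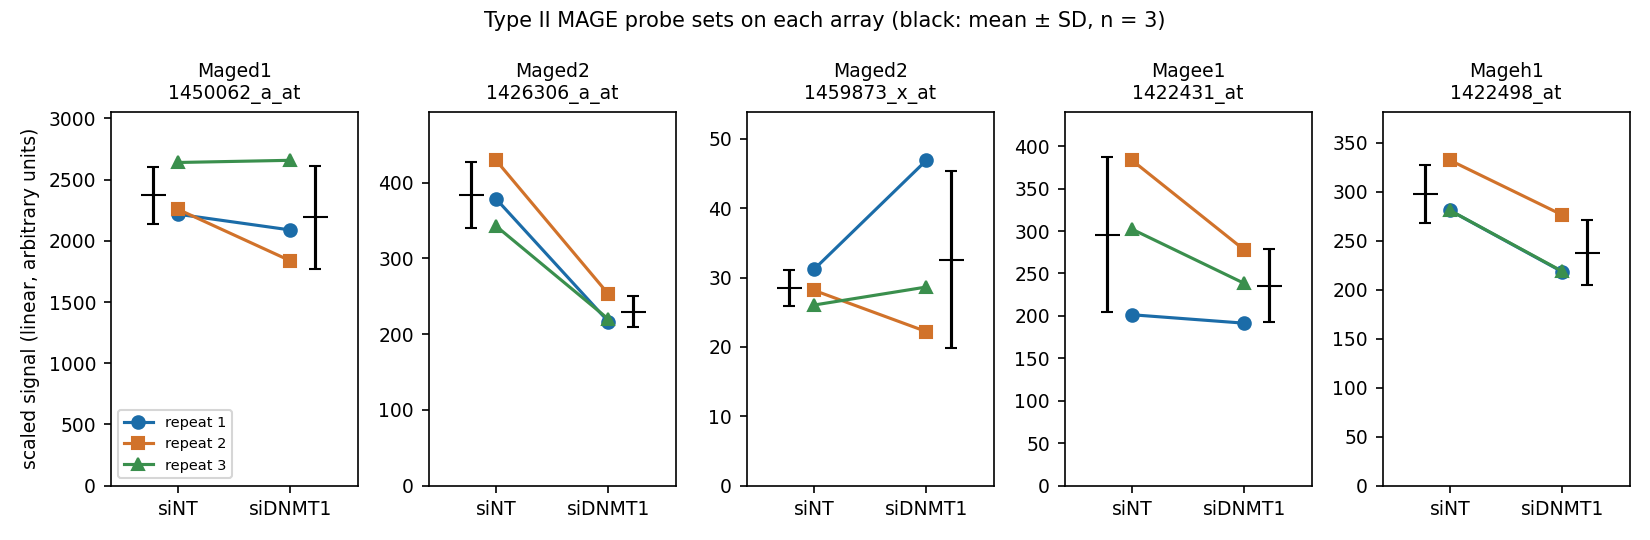
Scaled signal (linear, arbitrary units) of the 5 probe sets on each array, with siNT at left and siDNMT1 at right and a line joining the arrays of each repeat. Black bars are the mean ± SD (n = 3), and the axes start at 0. The bright Maged2 probe set went from 343 to 429.5 in the controls to 216 to 253 with siDNMT1 without overlap, and Maged1 overlapped between groups.

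Read over the genes by their brightest probe sets, 4 of 4 measured members had a mean difference below 0, with a median of -0.31, against a median of -0.06 over all 27022 tested probe sets. By the same rule 8220 of all 13477 tested genes lay below 0 and 5257 above. Of the 4 members, 3 were lower in 3 of 3 repeats and 2 did not overlap between groups. Over all tested probe sets 19.2% were lower in 3 of 3 repeats, and 5.78% had all siDNMT1 arrays below all siNT arrays (10.1% and 2.96% for the opposite direction). Since the members were chosen with this contrast in view, nothing is read from their counts, and no test of them is given. In the array-wide distribution 2.14% of tested probe sets had a lower mean difference than the bright Maged2 probe set, 13.8% than Mageh1, 16.5% than Magee1, 37.9% than Maged1 and 74.7% than the dim Maged2 probe set.

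**Figure D3:**
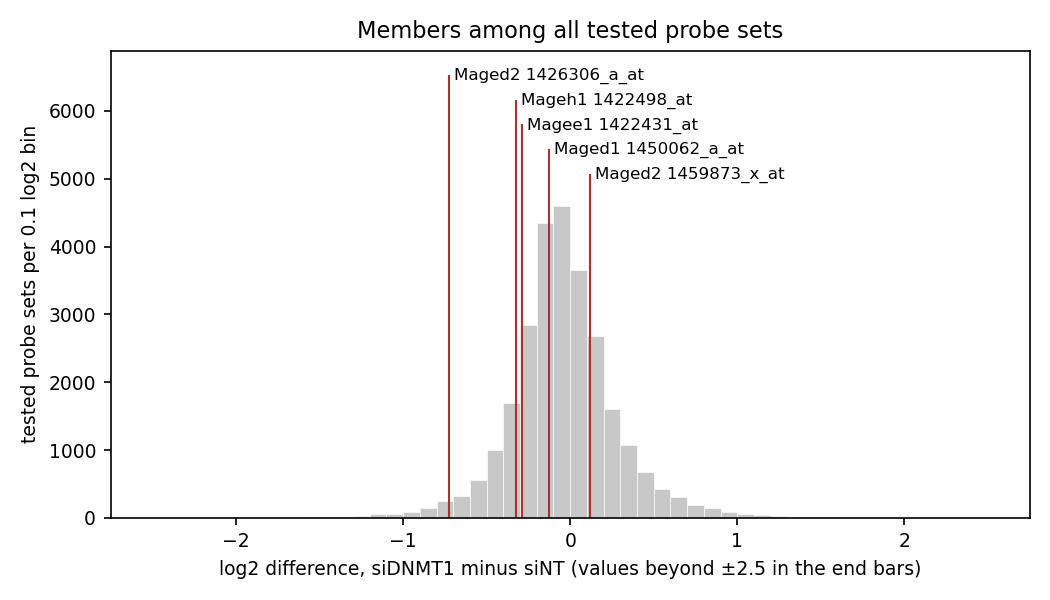
Histogram of the mean log2 difference (siDNMT1 minus siNT) of all 27022 tested probe sets, in bins of 0.1, with a red line at each of the 5 member probe sets. Maged2 (1426306_a_at) lies in the lower tail at -0.72, Mageh1 and Magee1 lie together at -0.32 and -0.29, and Maged1 lies near the centre at -0.12.

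Tro, also called Maged3, is another gene of the MAGE-D group and on chromosome X the nearest tested gene on one side of Maged2. It was measured by a pair of probe sets that differed. On 1421201_a_at the scaled signals were 69.0, 71.5 and 79.3 with siDNMT1 and 105, 107 and 99.6 with siNT, without overlap and with a difference of -0.48 (SE 0.19, limma adjusted p = 1, and 0.57 with the block). On the other, slightly brighter, probe set they were 80.9, 96.0 and 90.6 against 109, 84.4 and 91.9, which overlap, with a difference of -0.08 (SE 0.20, limma adjusted p = 1). No call was therefore made for Tro.

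Of 5 other type II genes tested by their brightest probe sets, limma called 0 higher and 0 lower in either fit, where it called 0% of all tested probe sets without the block and 0.0851% with it. At an unadjusted p under 0.05 there was 1 of the 5, Ndn, in either fit, against 3.79% of all tested probe sets without the block and 7.83% with it. The Ndn probe set, 1437853_x_at, carries the same suffix as the dim Maged2 probe set. With _x_at and _s_at probe sets left out, 4 of these genes were tested, and limma without the block had 0 at an unadjusted p under 0.05. The median difference of the 5 was -0.08. Ndn, the imprinted gene of necdin, a growth suppressor of neurons, had signals of 32.4, 25.6 and 10.1 with siDNMT1 and 47.4, 36.5 and 52.6 with siNT. All siDNMT1 arrays lay below the controls, but the difference of -0.94 (SE 0.36, limma adjusted p = 1) came mostly from repeat 3, at -1.91 against -0.48 and -0.43 in repeats 1 and 2. The other Ndn probe sets were too dim for the test, and on 1 of them, 1456575_at, the order was the opposite, with 17.3, 25.8 and 31.1 under siDNMT1 and 11.9, 4.67 and 9.22 under siNT. Nsmce3, encoding the MAGE subunit of the Smc5/6 chromosome complex, was at -0.22 (SE 0.20), with 0.01, -0.56 and -0.10 in the 3 repeats. Magef1, an adaptor linked to the turnover of a cytosolic iron-sulphur assembly factor, was at 0.21 (SE 0.21). The remaining gene, the imprinted Magel2, an adaptor of the ligase Trim27 at endosomes, is named outside the rule so that all 5 are given, and was at 0.12 (SE 0.28) with 0.79, -0.28 and -0.16 in the 3 repeats.

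**Figure D4:**
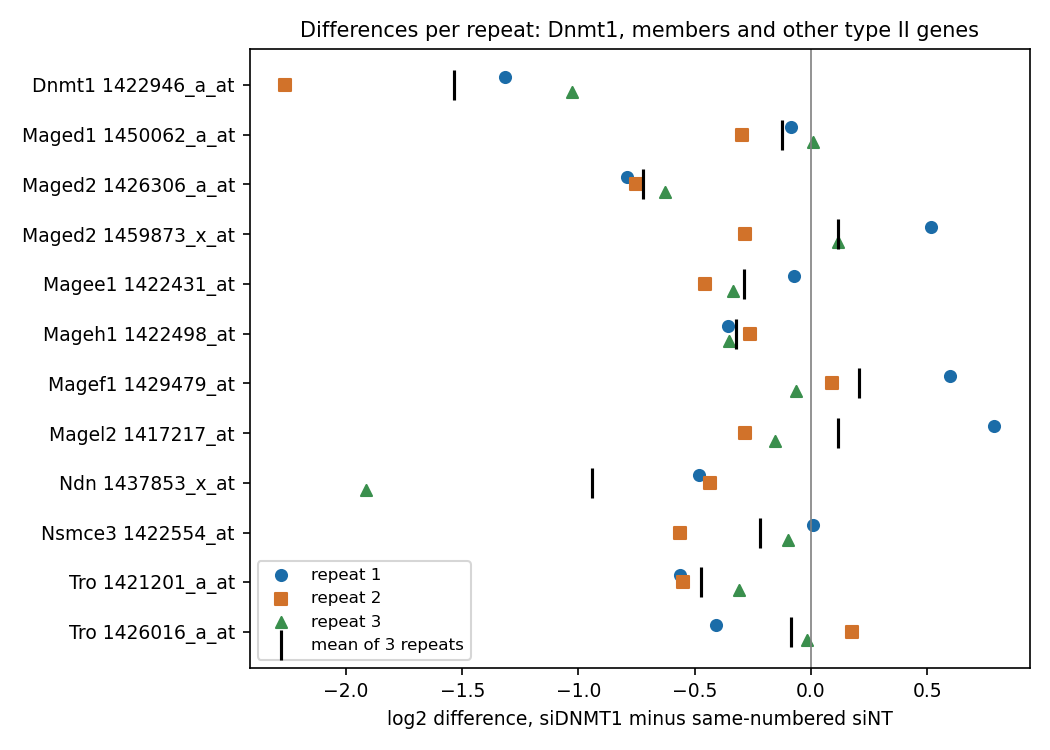
Log2 difference between each siDNMT1 array and the siNT array of the same repeat, for Dnmt1, the 5 member probe sets and the tested probe sets of other type II genes, with a black tick at the mean of 3 repeats. The bright Maged2 probe set (-0.79, -0.75 and -0.63) and Mageh1 (-0.36, -0.26 and -0.35) show the narrowest spread among members, and Ndn is set apart by repeat 3 at -1.91.

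Type I genes gave no higher signal that could be tested. The array names 5 of them by a symbol of their own, and only Mageb3 was bright enough for the test, with signals of 18.8, 24.5 and 17.8 under siDNMT1 and 30.5, 22.7 and 23.1 under siNT, a difference of -0.26 (SE 0.33, limma adjusted p = 1). Limma called 0 of this 1 gene, which was not at an unadjusted p under 0.05 either. Of the 4 untested genes Magea6 and Mageb16 had mean differences above 0, at 0.25 and 0.16, and Magea4 and Magea5 below 0, at -0.26 and -0.83. Magea5 was at 8.76, 3.58 and 12.02 with siDNMT1 and 19.2, 12.6 and 22.7 with siNT, around or below the filter of 16.8.

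The proteins that MAGE adaptors work with were taken from a list of 30 partner genes, of which 29 are named on the array and 26 were bright enough for the test. On their brightest probe sets limma called 0 higher and 0 lower in either fit. At an unadjusted p under 0.05 there were 0 of these probe sets, and 3, or 11.5%, with the block. The array-wide shares were 3.79% and 7.83%. Of the 26, 10 lay above 0 and 16 below, and the median was -0.09. Of all 13477 tested genes 5257 lay above and 8220 below. Among RING ligases, Pja2, a relative of Praja1, was at -0.55 (SE 0.32) and Pja1, the Praja1 ligase bound by Maged1, at -0.21 (SE 0.21), with 83.5%, 86.9% and 87.8% of control in the 3 repeats. The other tested Pja2 probe set was at 0.39. Trim27, the ligase linked to Magel2, was at -0.10 on its brightest probe set. On 1456375_x_at it was at 0.37, without overlap, with 0.35, 0.35 and 0.39 in repeats 1 to 3. There the limma unadjusted p was 0.0359, and 0.00952 with the block (limma adjusted p 0.469 with the block). Its remaining tested probe sets were at 0.04 and -0.18. The retromer and WASH group held the endosomal sorting genes Vps35, Vps26a, Vps29 and Washc1, linked to Magel2. Usp7, which is not a subunit of either complex, was listed with them. All 5 genes lay below 0 on their brightest probe sets, from -0.37 for Washc1 to -0.09 for Usp7. Over all tested probe sets of this group, those of Usp7 included, 10 of 16 lay below and 6 above 0. Of all 27022 tested probe sets 15997 lay below and 11025 above. The WASH subunit gene Washc1 was at -0.37 (SE 0.20) on its brightest probe set and at 0.37 on the other, each without overlap between groups. Vps29 of the retromer, at -0.21 (SE 0.13) and at -0.25, 0.02 and 0.50 on its other tested probe sets, Pja2 and Dtna were the 3 at an unadjusted p under 0.05 with the block, with limma adjusted p of 0.626, 0.552 and 0.599. The listed Smc5/6 subunit genes Smc5, Smc6, Nsmce2 and Nsmce4a lay between 0.03 and 0.16 on their brightest probe sets, with Smc6 at 0.32 and -0.76 on others, and Nsmce1, the RING subunit of that complex, was at 0.09.

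Probe sets of the dystrobrevins, of which Magee1 binds alpha-dystrobrevin, disagreed in direction. Dtna, encoding alpha-dystrobrevin, had signals of 6.10, 32.6 and 31.3 with siDNMT1 and 39.8, 39.4 and 43.1 with siNT, a difference of -0.88 (SE 0.44, limma adjusted p = 1) that rests mostly on siDNMT1 array 1 (-1.99, -0.24 and -0.40 in repeats 1, 2 and 3). Its other tested probe set was at 0.32. Dtnb, encoding beta-dystrobrevin, was at -0.37 (SE 0.21, limma adjusted p = 1) and lower in 3 of 3 repeats, but its dimmer probe set was at 0.66 and higher in 3 of 3. Dystrophin itself, Dmd, was at 0.20. Of the receptors and transcription factors bound by Maged1 and its relatives, Ngfr, the p75 neurotrophin receptor, was at -0.08 (SE 0.34) with differences of -0.04, 0.75 and -0.93, and Msx1 at -0.13. The other tested receptors had means above 0 but differed between repeats. Unc5a was at 0.18 (SE 0.24), with 0.74, -0.34 and 0.15 in repeats 1 to 3. Ror2 was at 0.44 (SE 0.53), with 1.00, 1.26 and -0.92. On their brightest probe sets the other tested factors lay below 0, E2f1 at -0.19 and Rora at -0.10. The E2f1 differences were 0.05, -0.66 and 0.03 in repeats 1 to 3, and its other tested probe set was at -0.17. For Rora the direction differed between probe sets, with the remaining tested ones at 0.49, 0.19, 0.56, 0.15 and -0.24. Too dim for the test were Dlx2, at 1.14, Dlx5, at -0.28, and Msx2, at -0.65. Gnas, encoding the G protein subunit linked to Maged2, was below 0 on all 5 tested probe sets. Its brightest, with deposited signals between 4000 and 6000, was at -0.10, and at 0.00043 with quantile normalization. On 1427789_s_at it was at -0.70 and lower in 3 of 3 repeats (limma adjusted p = 1, and 0.219 with the block), and the remaining probe sets were at -0.21, -0.69 and -0.24.

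Position on chromosome X was also compared. The 408 tested X-linked genes had a median difference of -0.07, with 157 above and 251 below 0. All 13477 tested genes had a median of -0.06, with 5257 above and 8220 below 0. Limma called 0 X-linked genes in either fit, with 11, or 2.7%, at an unadjusted p under 0.05 and 43, or 10.5%, with the block, against 3.89% and 8.81% of all tested genes. The 2 nearest tested genes on either side of each measured member gave 16 genes, of which 12 were below and 4 above 0, and limma called 0 of them in either fit, with 0 at an unadjusted p under 0.05 and 1 with the block. That gene was Gnl3l, the nearest tested gene to Maged2 on the side away from Tro, at -0.43 and lower in each repeat by -0.26, -0.41 and -0.62 (limma adjusted p = 1, and 0.459 with the block).

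Genes with the most similar course over the 6 arrays were taken by the highest Pearson r of log2 values, as a description over arrays that share their scaling and repeats. For Maged2 these were Tff3 (r = 0.994), Eno3 (0.989) and Katnal2 (0.987), with differences of -1.34, -1.25 and -0.52. For Mageh1 they were Eef1d (0.992), Get1 (0.992) and Ankrd13c (0.990), and for Magee1 Golga2 (0.996), Egr1 (0.994) and Ppp2r5e (0.993). For Maged1 they were Tpi1 (0.996), Ndufv3 (0.991) and Pkm (0.990). With 6 arrays such values are common, since of 13476 other genes 140 had an r over 0.9 with Maged2, 227 with Mageh1, 399 with Magee1 and 210 with Maged1. No measured member was among the 3 genes so listed for another.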

How the data were processed

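The deposited intensity table holds 1 linear signal per probe set and array, made with GCOS, the Affymetrix operating software, per the submitters' processing notes. The sources used here do not give its version, its settings, the target it scaled to or any detection call. Array medians ran from 19.8 to 36.4, so the arrays were brought to a common median on the log2 scale. The pseudocount, 5.29, was the 20th percentile of deposited values, and understates differences of dim probe sets. Of 45101 probe sets (64 controls), 27022 were tested, namely those whose mean scaled signal reached the 40th percentile, 16.8.

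siDNMT1 was compared with siNT by limma 3.58.1 in R 4.3.3 (lmFit, eBayes with trend, two-sided, Benjamini-Hochberg over all tested probe sets, threshold 0.05), without the repeat number and, as an alternative, with it as a block. Deviations of same-numbered arrays correlated at 0.173, 0.231 and 0.257, and those of different-numbered arrays at -0.179 to -0.0283, so the numbers pair the arrays. The fit without the block, which gave the limma SEs, does not use this pairing. The members and gene lists were chosen with earlier results of these data known. Named were all members, up to 4 tested genes per list with the smallest unadjusted p, any past the threshold, and the 3 most correlated genes per member. Further list genes and probe sets, and Gnl3l, were chosen after their values were seen. The brightest probe set stood for a gene, and names came from the platform annotation. RefSeq tables of GRCm38.p6 gave gene order and start windows, with no coordinates taken for the arrays.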

Additional observations from a re-analysis of the deposited data

How the results depend on the processing

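The bright Maged2 probe set kept its direction under all 11 alternatives run on it, from -0.80 to -0.64, and Mageh1, Magee1 and Maged1 stayed below 0 under theirs. Averaging both Maged2 probe sets gave -0.30. Mageh1 was at -0.26 with trimmed mean scaling and -0.25 with quantile normalization, more than its narrow spread between repeats. With single arrays left out, Maged2 ran from -0.80 to -0.64, Mageh1 from -0.43 to -0.24, Magee1 from -0.54 to -0.080, Maged1 from -0.27 to -0.0048 and the dim Maged2 probe set from -0.14 (without siDNMT1 array 1) to 0.32. Dnmt1 ran from -1.79 (limma adjusted p = 0.044, without siDNMT1 array 3) to -1.26, and with the replicate block it was at -1.54 with an adjusted p of 0.0211. Over all probe sets limma called 0, but 23 with the replicate block, 1 with trimmed mean scaling, 2 without scaling, 1 with quantile normalization, 1 with the filter at the 60th percentile, and 0 to 4 with single arrays left out (4 without siDNMT1 array 3). The other type II, type I and partner lists had 0 calls under every alternative run, and the block changed no other call. For the calls that differ, the cause was not tested. Without detection calls, values near the filter have no stated floor.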
